A study of Mus musculus with 35 samples.

Results

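The 10 genes described here make and load MHC class I molecules: the heavy chains H2-D1 and H2-K1, the light chain B2m, the peptide transporter genes Tap1 and Tap2, the loading factor gene Tapbp, the immunoproteasome subunit genes Psmb8, Psmb9 and Psmb10, and the transcriptional activator gene Nlrc5. They are 10 of the 24421 genes in the count files and were taken by name. The set was chosen by the level of H2-D1 RNA, which was higher with Ad-Cre than with Ad-GFP in the MT194 populations, so that contrast is described for all 10 genes without a test.

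RNA-seq was done on 35 libraries of immortalized mouse embryonic fibroblasts (MEFs) whose genotype is Nelfb flox/-, with 1 floxed and 1 null allele of the gene for subunit B of the negative elongation factor (NELF), in order to ask how far mutants of NELFB can stand in for the lost protein. Of these, 20 libraries are cell populations that carry a pLenti vector with EV (empty vector), WT (wild-type NELFB), MT194 (an alanine mutant that does not bind NELFA and NELFC), MT486 (an alanine mutant that does not bind NELFE) or DMT (both changes in the same protein), each 7 days after Ad-Cre, an adenovirus with Cre and GFP that deletes the floxed allele, or after Ad-GFP, the control virus, with 2 replicates in each of the 10 groups. The other 15 libraries are single-cell clones isolated after Ad-Cre, 3 each with WT, MT194 and MT486 in pLenti and with WT(N48) and Δ-C60, which lacks the C-terminal end, in pBabe. Each clone grew from 1 cell, the term N48 is not explained in the sources used here, and the effect of the pBabe vector cannot be told apart from that of WT(N48) or Δ-C60. Reads on genes ranged from 17969149 to 29080007 per population library (median 21617291) and from 18413284 to 27816723 per clone (median 20933014).

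MHC class I molecules present peptides of the cell's own proteins on its surface to CD8 T cells and NK cells. Proteasomes cut the peptides, TAP1 and TAP2 together carry them into the endoplasmic reticulum, tapasin holds the empty heavy chain next to the transporter, and the heavy chain leaves for the surface with B2M and a peptide bound. Fibroblasts make class I molecules at a low level at rest and raise the whole pathway together in response to interferons, through IRF factors, NF-κB and NLRC5.

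Of the 10 genes, 7 lie on chromosome 17 of mm10 in or beside the H2 complex. In order they are Tapbp (33915899 to 33929292, plus strand), H2-K1 (33996017 to 34000347, minus), Psmb9 (34181987 to 34187764, minus), Tap1 (34187553 to 34197225, plus), Psmb8 (34197721 to 34201454, plus), Tap2 (34203527 to 34216321, plus) and H2-D1 (35262730 to 35267499, plus). B2m lies on chromosome 2 (122147686 to 122153083, plus), and Psmb10 (105935735 to 105938444, minus) and Nlrc5 (94434356 to 94527272, plus) lie on chromosome 8. Psmb9 and Tap1 start from opposite strands and share 212 bases of exon, and since it is not stated whether reads were counted by strand, reads in those bases cannot be assigned to either gene. Of all 50-base windows in the transcripts of H2-D1 and H2-K1, 12.8% and 9.63% also occur in another gene, such as H2-Q7, and the filter on mapping quality removes such reads, so the levels of both heavy chains are uncertain to that extent. The share was 23.2% for Tapbp, 11.9% for Psmb8 and 11.6% for Tap2, and at most 4.19% for each of the other 5 genes. Reads shared only with a gene at the same place are not removed by that filter. Tapbp shares windows with Zbtb22, whose exons overlap its own. Whether other partners, such as Gm20496 for Psmb8 and Tap2, lie at the same place was not checked. How far the levels of Tapbp, Psmb8 and Tap2 are uncertain is therefore not known.

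The promoters of the heavy chains carry the letters for which the family is known. They are shown because H2-D1 and H2-K1 had the largest fitted Cre effects of the set in EV and DMT. That holds in the fit without the replicate block, though not in WT or MT486. MT194, whose values chose the set, was left out of this ranking. RefSeq promoters of GRCm38.p6, the 250 bases before a start site, were found for 8 of the 10 genes. The κB element of class I genes was searched as GGGGA, any base, TCCCC, which is its own reverse complement, and occurred in 15 of 32851 promoters (0.0457%), those of H2-D1 and H2-K1 among them. The element read by interferon regulatory factors (IRF) was searched on both strands as GAA, any 2 bases, GAAAC, found in 1.45% of all promoters and in those of H2-D1 and H2-K1, and as GAAA, any 2 bases, GAAA, found in 2.98% and in that of B2m. The IRF forms can overlap each other. In the 30-base stretches that follow, 5′ to 3′ on the strand of the gene, capitals mark the κB letters and the IRF letters, which in both heavy chains stand as the reverse complement. The stretch of H2-D1 is chr17:35262923-35262952 (plus strand), that of H2-K1 chr17:34000429-34000458 (minus strand) and that of B2m chr2:122147538-122147567 (plus strand).
H2-D1: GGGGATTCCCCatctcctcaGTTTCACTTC
H2-K1: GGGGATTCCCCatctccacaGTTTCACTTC
B2m: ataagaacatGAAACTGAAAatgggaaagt
The stretches of H2-D1 and H2-K1 share 29 of 30 bases, and over 190 aligned promoter bases the pair was 87.4% identical. The stretch of H2-D1 runs from base −171 to base −142 relative to its RefSeq start and lies inside an exon of a longer GENCODE transcript. The whole 250-base window of H2-K1, chr17:34000348-34000597 on the minus strand, also holds TGACG, the core of the cyclic AMP response element and part of the module through which NLRC5 acts, and ATTGG, the reverse complement of the CCAAT box, both in lower case here.
H2-K1 promoter: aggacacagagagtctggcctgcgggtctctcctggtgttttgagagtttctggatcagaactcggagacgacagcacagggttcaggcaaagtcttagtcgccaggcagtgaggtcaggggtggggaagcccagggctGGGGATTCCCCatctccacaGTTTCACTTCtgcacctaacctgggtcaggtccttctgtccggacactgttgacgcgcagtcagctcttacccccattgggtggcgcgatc
TGACG occurred on either strand in 17.8% of all promoters and in 5 of the 8 found here (H2-D1, H2-K1, B2m, Tap1 and Psmb9), and CCAAT in 33.8% and in 6 of the 8 (these 5 and Tapbp). The windows of Tap1 and Psmb9 overlap, and their TGACG and CCAAT matches are the same bases read from opposite strands. These matches describe letters and do not show that a factor bound.

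Nelfb RNA was checked first against the labels. EV populations held 46.1 and 39.5 CPM of Nelfb (TMM-normalized read counts scaled to a common library size, CPM, replicates 1 and 2) with Ad-GFP and 7.97 and 5.46 CPM with Ad-Cre, while all other populations held between 60.5 and 208 CPM. Among the clones, WT clone 2 held 109 CPM, but 2 libraries with the same WT label, clones 1 and 3, held only 10.3 and 15.5 CPM, which goes against the ectopic NELFB their labels name. Comparisons with the WT clones are therefore also given without these libraries and with WT(N48) in place of WT. The cell type label was checked with 10 fibroblast markers, whose summed level was 21657 to 50250 CPM in the populations and 7481 to 26146 CPM in the clones. Fn1 was the most abundant in all 20 populations and 12 of the 15 clones. Thy1, however, was at 0 reads in 13 of the 20 populations and 11 of the 15 clones. Lum was at 0 reads in 9 of the 15 clones, and in single clones Dcn fell to 0.494 CPM and Pdgfra to 5.48 CPM. The lowest clone value of the other markers listed was 45.0 CPM (Col3a1). The 10 immune cell markers summed to 4.09 to 10.8 CPM in the populations and 1.83 to 9.87 CPM in the clones. Cd68 had the highest mean of them in the populations, and Ptprc, the general marker of blood cells, never exceeded 3 reads in a library.

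Levels per exon length differed widely among the 10 genes. In EV with Ad-GFP, B2m stood at 1716 RPKM (CPM per kilobase of exon; mean of 2), H2-K1 at 134, Tapbp at 128 and H2-D1 at 69.7, followed by Tap2 at 12.7, Psmb10 at 10.3, Tap1 at 9.59, Nlrc5 at 6.99, Psmb8 at 3.93 and Psmb9 at 0.455. H2-K1 and Tapbp as neighbours in this order did not differ beyond their spread, nor did Tap2, Psmb10 and Tap1. With Ad-GFP, the control virus, 0 of the 10 genes were called in WT, MT486 or DMT against EV, where 0.0%, 0.00724% and 0.0% of 13805 genes were called. A gene was called when its adjusted p was under 0.05 (quasi-likelihood test of edgeR, Benjamini-Hochberg over all genes tested) and its absolute log2 fold change over 0.5. At an unadjusted p under 0.05 these comparisons gave 84, 252 and 175 genes, and DESeq2 also called 0 of the 10. Without overlap, H2-D1, H2-K1, B2m and Tap1 were lower in MT486-GFP than in EV-GFP (7.9% of all genes lay that way), and H2-K1 was lower in DMT-GFP (6.71%).

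At 7 days after Cre, both heavy chains, the immunoproteasome subunit genes Psmb8 and Psmb9 and the activator gene Nlrc5 rose in cells without ectopic NELFB. H2-D1 rose most, while the third immunoproteasome gene, Psmb10, and Tapbp had lower fitted levels with Ad-Cre and did not pass. Among all 13805 genes, 5.84% were called higher in EV. In DMT, 4 of these 5 genes passed (4.58% of all genes were called higher) and in MT486 Psmb9 did (1.14%), whereas in WT 3 genes were called in all (0.0217%) and none of them was in the set. With the replicate number as a block, 8 of the 10 were called higher in EV (12.4% of all genes), 7 in DMT (11.2%), 7 in MT486 (5.55%) and 2, Psmb8 and Psmb9, in WT (1.34%). Unless the block is named, test results of single genes below are from the fit without it, and the calls it added are named further on.

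**Figure D1:**
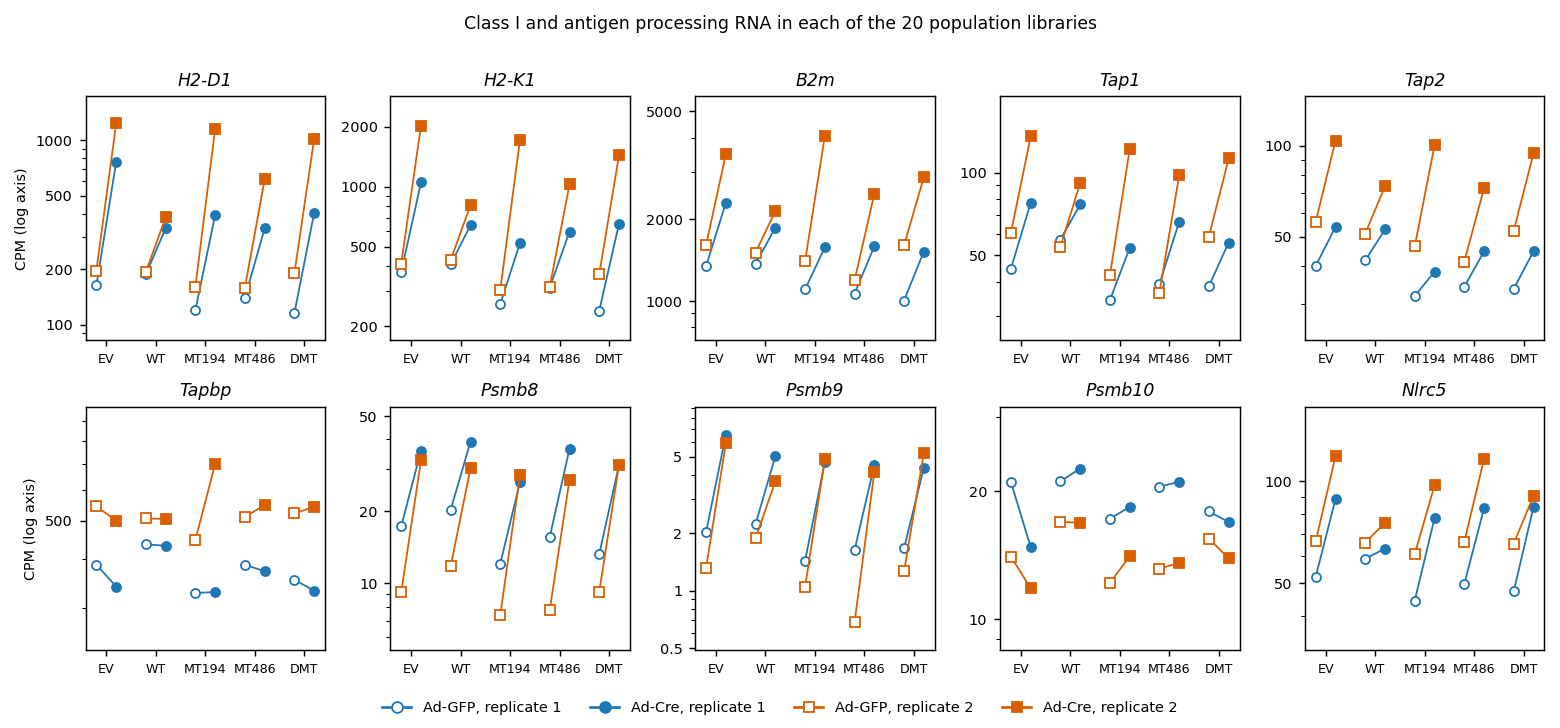
RNA level (CPM, log axis, a scale of its own in each panel) of each gene in the 20 population libraries; open symbols are Ad-GFP, filled symbols Ad-Cre, and a line joins libraries with the same replicate number. H2-D1 is higher with Ad-Cre in every pair, going from 163 and 197 to 764 and 1236 CPM in EV but only from 188 and 193 to 334 and 383 CPM in WT, while Psmb10 stays between 11.8 and 22.6 CPM throughout.

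H2-D1 encodes a classical heavy chain, the part of the class I molecule that holds the peptide. Its level in EV was 163 and 197 CPM with Ad-GFP and 764 and 1236 CPM with Ad-Cre, 4.68-fold and 6.29-fold in replicates 1 and 2. In WT it was 188 and 193 CPM with Ad-GFP and 334 and 383 CPM with Ad-Cre, 1.78-fold and 1.98-fold. In neither construct did the groups overlap. The log2 fold change was 2.48 in EV (standard error, SE, 0.53; edgeR adjusted p = 0.00891) and 0.91 in WT (SE 0.51; edgeR adjusted p = 0.868). In MT486, H2-D1 went from 140 and 159 CPM to 333 and 614 CPM, a log2 fold change of 1.66 (SE 0.52; edgeR adjusted p = 0.121). It was called there with the replicate block (1.59, edgeR adjusted p = 0.00791). In DMT it went from 115 and 190 CPM to 404 and 1016 CPM, a log2 fold change of 2.22 (SE 0.53; edgeR adjusted p = 0.0172). With Ad-Cre, every construct had more H2-D1 in replicate 2 than in replicate 1, by the widest margin in MT194 and DMT.

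H2-K1, the other classical heavy chain, followed H2-D1 at a higher level. It went from 374 and 413 CPM with Ad-GFP to 1054 and 2031 CPM with Ad-Cre in EV, and from 409 and 431 CPM to 642 and 810 CPM in WT. The groups were separate in both constructs. Its log2 fold change was 1.97 in EV (SE 0.53; edgeR adjusted p = 0.0270), 1.80 in DMT (SE 0.53; edgeR adjusted p = 0.0450), 1.37 in MT486 (SE 0.52; edgeR adjusted p = 0.221) and 0.79 in WT (SE 0.51; edgeR adjusted p = 0.934). H2-K1 was also called in MT486 with the replicate block (1.30, edgeR adjusted p = 0.0287), but not in WT.

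B2m, the light chain that every class I molecule shares, was the most abundant of the set and moved less. It went from 1344 and 1609 CPM to 2305 and 3479 CPM in EV, a log2 fold change of 0.97 (SE 0.44; edgeR adjusted p = 0.183). Nor did it pass the test in WT (0.48), MT486 (0.85) or DMT (0.75). The fit with the replicate block called B2m in EV (0.94, edgeR adjusted p = 0.00511), MT486 (0.81, edgeR adjusted p = 0.0226) and DMT (0.73, edgeR adjusted p = 0.0228), but not in WT. The heavy chains were also higher relative to their partner: per exon length, the sum of both heavy chains was 12.2% and 11.6% of B2m in EV with Ad-GFP and 24.4% and 28.9% with Ad-Cre. In WT the same ratio was 13.3% and 12.6% with Ad-GFP and 16.1% and 17.0% with Ad-Cre, so the groups were separate in WT as well but by less. No test was run on these ratios.

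Tap1 and Tap2, which encode the partners of the transporter that brings peptides to the heavy chain, had smaller changes. Tap1 went from 44.6 and 60.4 CPM to 77.8 and 136 CPM in EV (log2 fold change 1.03, SE 0.41, edgeR adjusted p = 0.129). Tap2 went from 40.1 and 56.1 CPM to 54.0 and 104 CPM (log2 fold change 0.72, SE 0.48, edgeR adjusted p = 0.383), and its groups overlapped. Both genes were called in EV with the replicate block (Tap1 1.00, edgeR adjusted p = 0.0169, and Tap2 0.67, edgeR adjusted p = 0.0340). Tapbp, which encodes tapasin, stood at 387 and 544 CPM with Ad-GFP and at 340 and 501 CPM with Ad-Cre in EV. Its groups overlapped in all 5 constructs, and its log2 fold change lay between −0.15 in EV and 0.41 in MT194.

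Psmb8 and Psmb9 encode catalytic subunits that replace Psmb5 and Psmb6 when the immunoproteasome is built. Psmb9 had few reads and went from 2.02 and 1.32 CPM to 6.53 and 5.89 CPM in EV, from 1.63 and 0.683 CPM to 4.52 and 4.17 CPM in MT486, and from 1.66 and 1.26 CPM to 4.40 and 5.22 CPM in DMT. Its log2 fold change was 1.89 in EV (SE 0.32; edgeR adjusted p = 0.00200), 1.88 in MT486 (SE 0.33; edgeR adjusted p = 0.0101) and 1.73 in DMT (SE 0.32; edgeR adjusted p = 0.00437). In WT, Psmb9 stood at 2.23 and 1.88 CPM with Ad-GFP and at 5.05 and 3.72 CPM with Ad-Cre, separate groups with a log2 fold change of 1.10 (SE 0.31; edgeR adjusted p = 0.468). Psmb8 went from 17.4 and 9.22 CPM to 35.9 and 32.7 CPM in EV (log2 fold change 1.37, SE 0.38, edgeR adjusted p = 0.0320) and from 13.3 and 9.22 CPM to 31.3 and 31.3 CPM in DMT (1.48, SE 0.38, edgeR adjusted p = 0.0259). The WT populations had a Psmb8 change of 1.11 (SE 0.38; edgeR adjusted p = 0.589), from 20.3 and 11.8 CPM to 39.2 and 30.3 CPM. Both genes were called in WT with the replicate block (Psmb8 1.14, edgeR adjusted p = 0.0144, and Psmb9 1.09, edgeR adjusted p = 0.0146).

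Psmb10, the third catalytic subunit of the immunoproteasome, which replaces Psmb7, did not follow its partners. It stood at 21.0 and 14.0 CPM with Ad-GFP and at 14.8 and 11.8 CPM with Ad-Cre in EV, overlapping groups with a log2 fold change of −0.40 (SE 0.30; edgeR adjusted p = 0.445), and its changes in the other constructs lay between −0.11 and 0.14. Per exon length, Psmb8 was 28.8% and 19.3% of Psmb5 in EV with Ad-GFP and 70.9% and 68.2% with Ad-Cre. Psmb9 was 1.87% and 1.65% of Psmb6 with Ad-GFP and 8.10% and 8.54% with Ad-Cre, and Psmb10 was 52.8% and 47.7% of Psmb7 and then 31.0% and 35.7%. In EV the 3 inducible subunits thus did not move together relative to the constitutive subunits they replace.

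**Figure D2:**
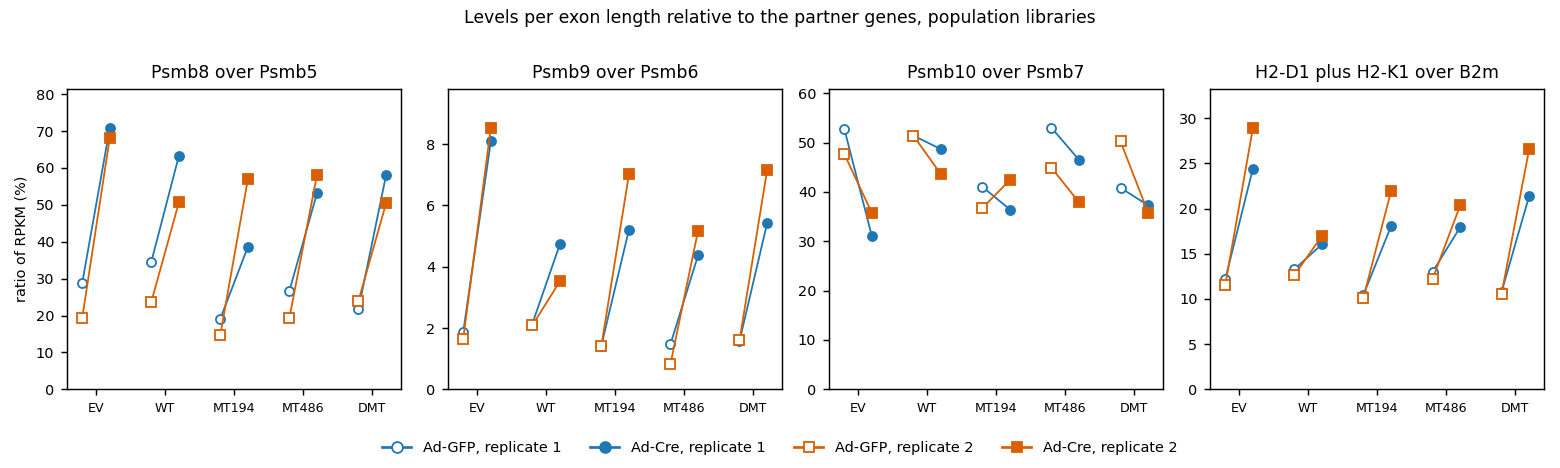
Ratio of RNA levels per exon length (RPKM, in percent) in the 20 population libraries for each inducible proteasome subunit over the constitutive subunit it replaces, and for the sum of both heavy chains over B2m; open symbols are Ad-GFP, filled symbols Ad-Cre, and lines join libraries of the same replicate number. Psmb8 over Psmb5 is higher with Ad-Cre in all 10 pairs, in EV from 28.8% and 19.3% to 70.9% and 68.2%, while Psmb10 over Psmb7 is lower with Ad-Cre in both pairs of EV, WT, MT486 and DMT and in 1 pair of MT194.

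Nlrc5 encodes a transcriptional activator of the class I genes. It went from 52.3 and 66.5 CPM to 88.7 and 118 CPM in EV, a log2 fold change of 0.80 (SE 0.24; edgeR adjusted p = 0.0465). Without the replicate block, the changes in MT486 (0.78, edgeR adjusted p = 0.120) and DMT (0.63, edgeR adjusted p = 0.124) did not pass the test. With the block both passed (MT486 0.78, edgeR adjusted p = 1.74e-05, and DMT 0.65, edgeR adjusted p = 3.24e-05). In WT, Nlrc5 went from 59.1 and 65.9 CPM to 63.3 and 75.5 CPM, overlapping groups (0.15, edgeR adjusted p = 1).

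In EV, 5 of the 10 genes were called higher and 0 lower, against 5.84% of 13805 genes called higher and 11.8% called in either direction, and the median log2 fold change of the 10 was 1.00 against 0.00 for all genes tested. DMT had 4 called higher against 4.58%, with a median of 0.77, and MT486 had 1 against 1.14%, with a median of 0.99. In WT, 0 were called, against 3 genes in all (0.0217%), with a median of 0.54. At an unadjusted p under 0.05, 859 genes passed in WT, and DESeq2 also called 0 of the 10 there. Groups did not overlap, in the higher direction, for 7 genes in EV (background 24.5%), 7 in WT (18.7%), 8 in MT486 (18.0%) and 5 in DMT (3319 of 13805 genes). In DMT, the groups overlapped for B2m, Tap1, Tap2, Tapbp and Psmb10.

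The replicate numbers mark 2 experiments, and a fit with this number as a block called more genes. In EV it called 8 of the 10 higher (12.4% of all genes), adding B2m (log2 fold change 0.94, edgeR adjusted p = 0.00511), Tap1 (1.00, edgeR adjusted p = 0.0169) and Tap2 (0.67, edgeR adjusted p = 0.0340). In MT486 it called 7 (5.55%): H2-D1, H2-K1, B2m, Tap1, Psmb8, Psmb9 and Nlrc5. In DMT it called 7 (11.2%): H2-D1, H2-K1, B2m, Tap2, Psmb8, Psmb9 and Nlrc5. In WT it called 2 (1.34%), Psmb8 (1.14, edgeR adjusted p = 0.0144) and Psmb9 (1.09, edgeR adjusted p = 0.0146). Calls also rested on single libraries. In the EV comparison without the block, leaving out EV-Cre replicate 1 left 3 calls, EV-Cre replicate 2 left 1, EV-GFP replicate 1 left 2 and EV-GFP replicate 2 left 1, and Psmb9 was called in each of these 4 fits. In DMT it was 1 without DMT-Cre replicate 2, 1 without DMT-GFP replicate 1 and 0 without DMT-GFP replicate 2, and in MT486 the call of Psmb9 was lost when either MT486-Cre library, or replicate 2 of MT486-GFP, was left out.

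**Figure D3:**
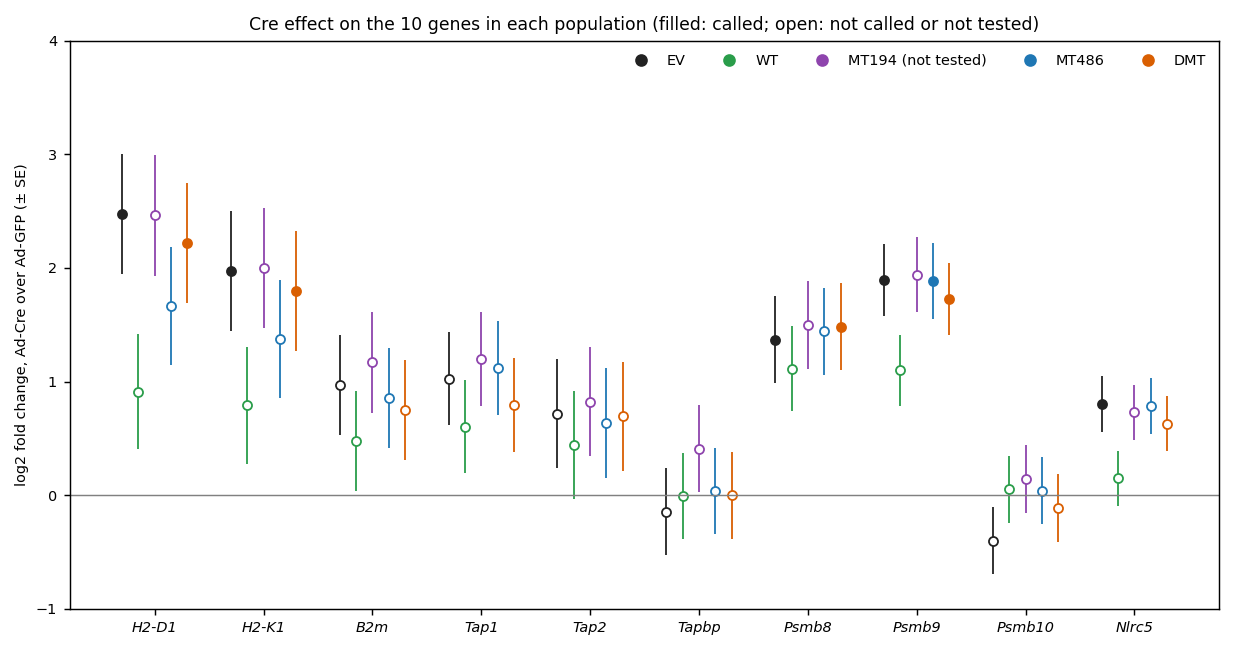
Fitted log2 fold change of Ad-Cre over Ad-GFP with its standard error for each gene and construct (2 libraries per group, fit without the replicate block); filled points were called, open points were not called or, for MT194, not tested. H2-D1 lies at 2.48 in EV, 0.91 in WT and 2.46 in MT194, and Tapbp and Psmb10 lie within 0.41 of 0 in every construct.

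The MT194 populations, whose H2-D1 values chose the set, are described without a test. H2-D1 went from 120 and 161 CPM to 394 and 1154 CPM, a log2 fold change of 2.46 (SE 0.53), which became 1.49 without MT194-Cre replicate 2. The other changes were 2.00 for H2-K1, 1.94 for Psmb9, 1.501 for Psmb8, 1.20 for Tap1, 1.17 for B2m, 0.82 for Tap2, 0.73 for Nlrc5, 0.41 for Tapbp and 0.14 for Psmb10. A log2 fold change over 0.5 was reached by 8 of the 10, H2-D1 included; 11.5% of all genes tested reached it, and since the set was chosen on this contrast nothing is read from the count.

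Whether ectopic NELFB made a difference to the 10 genes was tested directly, by comparing each Cre effect with that in EV and the WT, MT486 and DMT populations with Ad-Cre with the EV population with Ad-Cre. No difference between Cre effects passed the test: for H2-D1 the effect in WT minus that in EV was −1.56 (SE 0.72; edgeR adjusted p = 0.418), and 0 of the 10 genes were called in WT, MT486 or DMT, where 0.681%, 0.00724% and 0.00724% of all genes were. With the block, Nlrc5 was called lower in WT (−0.65, edgeR adjusted p = 0.00285; 6.17% of all genes were called lower), and H2-D1 was at −1.53 (edgeR adjusted p = 0.0511). After Cre, H2-D1 was at 334 and 383 CPM in WT against 764 and 1236 CPM in EV, without overlap, a log2 fold change of −1.48 (SE 0.51; edgeR adjusted p = 0.0978). None of the 10 genes was called in WT-Cre, MT486-Cre or DMT-Cre against EV-Cre, where 7.37%, 0.362% and 0.00724% of all genes were called. DESeq2 called H2-D1 lower in WT-Cre and none of the 10 in the others. At an unadjusted p under 0.05 the 3 comparisons gave 3268, 1676 and 447 genes, and the 3 differences between Cre effects gave 1622, 715 and 159. With the block, H2-D1 (−1.43, edgeR adjusted p = 0.00732), H2-K1 (−1.02, edgeR adjusted p = 0.0464) and Nlrc5 (−0.57, edgeR adjusted p = 0.000134) were called lower and Psmb10 higher (0.56, edgeR adjusted p = 0.00127) in WT-Cre, against 11.9% lower and 11.1% higher among all genes. In MT486-Cre the block called H2-D1 lower (−1.10, edgeR adjusted p = 0.0477; 4.16% of all genes). All these comparisons use the same EV libraries.

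Of 25 other class I genes in the files, 11 had enough reads, and 3 were called higher in EV: H2-T24 (log2 fold change 1.85), H2-Q4 (1.73) and H2-T10 (1.05). H2-Q4, the most abundant of them, went from 61.2 and 70.2 CPM to 149 and 288 CPM in EV (edgeR adjusted p = 0.0241). DMT had 2 of the 11 called higher, H2-T24 and H2-Q4 (both 1.69), MT486 had H2-T24 alone (1.45), and WT had 0. With the block these counts were 7 higher and 1 lower in EV, 4 and 1 in DMT, 5 and 1 in MT486 and 1 and 2 in WT. Of all genes, the block called 12.4% higher and 13.0% lower in EV, 5.55% and 6.57% in MT486 and 1.34% and 1.75% in WT, and 11.2% higher in DMT. Without it 5.84%, 4.58% and 1.14% were called higher in EV, DMT and MT486. Many of these genes are near copies of each other, so their counts are uncertain in the same way as those of the heavy chains.

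Of the 7 peptide loading and trimming genes, 0 were called in any of these constructs, with a median of −0.17 in EV, and the most abundant, Calr, a chaperone of the heavy chain, had a log2 fold change of −0.17 (SE 0.44). Of the 14 subunits of the constitutive 20S proteasome, 0 were called in any of them and the median in EV was 0.11; Psmb4, the most abundant in the populations, was not called. With the block, 1 of the 14 was called higher in EV (12.4% of all genes) and none of the 7 loading genes in any construct. Without it, 11.8% of all genes were called in EV, 0.0217% in WT, 2.42% in MT486 and 9.92% in DMT. Of 4 proteasome activator and assembly genes, Psme2, a subunit of the activator that interferon induces, fell in EV (log2 fold change −0.71, SE 0.16, edgeR adjusted p = 0.0109) and in DMT (−0.58, edgeR adjusted p = 0.0324), opposite to Psmb8 and Psmb9. Among all genes, 5.94% were called lower in EV and 5.34% in DMT. Psme3 was the most abundant of these 4.

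Of 20 regulators of class I transcription other than Nlrc5, Irf7 rose in EV (1.22, edgeR adjusted p = 0.0195) and in DMT (1.03, edgeR adjusted p = 0.0466). Relb, a member of the NF-κB family, fell in EV (−0.70, edgeR adjusted p = 0.0215) and in DMT (−0.63, edgeR adjusted p = 0.0390), as did Nfkb2 in EV (−0.50, edgeR adjusted p = 0.0131) and Rfx5, a component of the complex that binds the X box, in DMT (−0.73, edgeR adjusted p = 0.0296). Among all genes, 5.84% were called higher and 5.94% lower in EV, and 4.58% and 5.34% in DMT. Nothing is read from the number of regulators called. With the block, Rfx5 (−0.55, edgeR adjusted p = 0.000941) and Nfyc (−0.53, edgeR adjusted p = 0.00726) were also called lower in EV, and Irf7 was called higher in MT486 (1.26, edgeR adjusted p = 0.000937). Nfkb2, Relb and Irf7 in EV and Irf7, Relb and Rfx5 in DMT were called in both fits. The tally of the 20 with the block was 1 higher and 4 lower in EV, 2 and 0 in MT486 and 1 and 2 in DMT. Of all genes, the block called 12.4% higher and 13.0% lower in EV and 5.55% and 6.57% in MT486. In DMT it called 11.2% higher and 1651 of 13805 lower. Stat2 was the most abundant of the list. Of the interferon ligands, receptors and kinases, 8 had enough reads, all of them receptors or kinases, and none was called in EV, WT, MT486 or DMT. The block called 1 lower in EV, MT486 and DMT each, and Jak1 was the most abundant. The ligands were not tested, with at most 11 reads of Ifnb1 and 1 of Ifng in a population library.

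Of 31 interferon-stimulated genes tested, 12 were called higher in EV (median 0.93), 13 in MT486 (median 1.31), 8 in DMT (median 0.72) and 0 in WT (median 0.69), and none lower. Among all genes, 5.84%, 1.14%, 4.58% and 0.0217% were called higher in EV, MT486, DMT and WT. The largest calls in EV were Oas2 (2.90), Oas3 (2.47), Ifit3b (1.81) and Ifit3 (1.65), genes of the antiviral response. Bst2, which encodes tetherin and was the most abundant, went from 165 and 159 CPM to 324 and 491 CPM in EV (1.33, SE 0.32, edgeR adjusted p = 0.0152) and from 191 and 145 CPM to 329 and 336 CPM in WT (0.99, SE 0.31, edgeR adjusted p = 0.532). With the block, 24 were called higher in EV, 27 in MT486, 19 in DMT, with 1 lower, and 6 in WT, against 12.4%, 5.55%, 11.2% and 1.34% of all genes called higher. Of the 10 class II genes, 3 were tested, and Cd74, the invariant chain, fell in EV (−2.49, edgeR adjusted p = 0.0115) and DMT (−2.18, edgeR adjusted p = 0.0142), and with the block also in MT486 (−1.74, edgeR adjusted p = 0.000441). Among all genes, 5.94% were called lower in EV and 5.34% in DMT, and 6.57% in MT486 with the block. H2-DMb1 was the most abundant of the class II list.

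**Figure D4:**
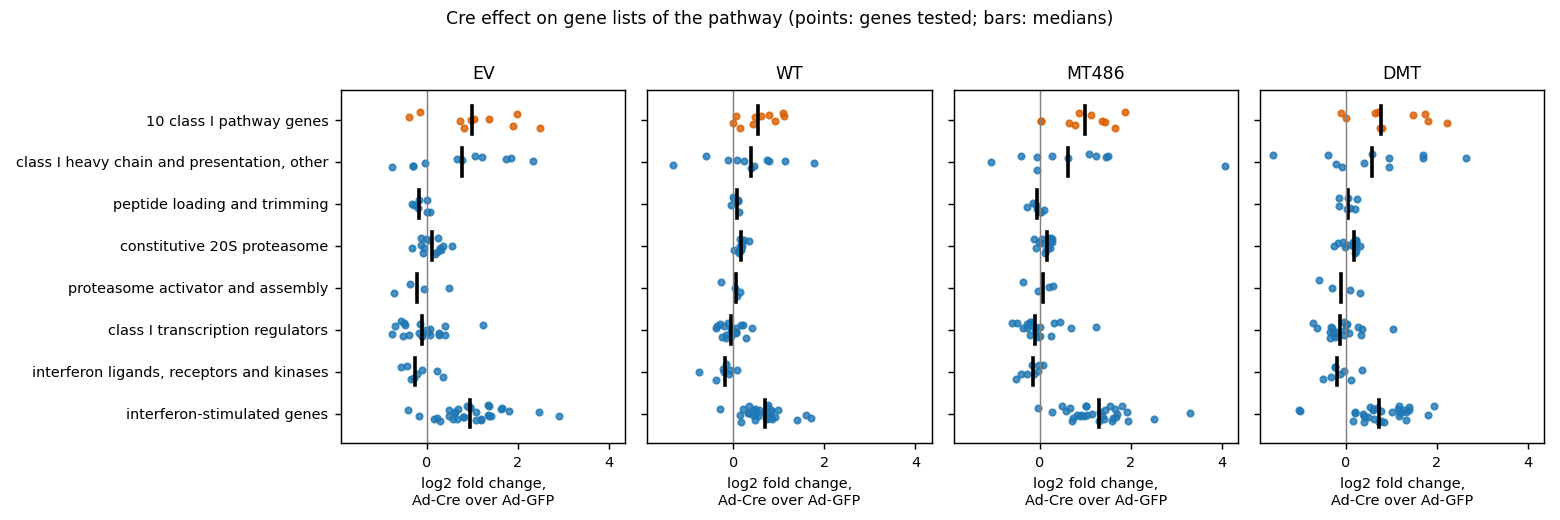
Log2 fold change of Ad-Cre over Ad-GFP of each gene tested in the 10-gene set (orange) and in 7 other lists of the pathway (blue), in EV, WT, MT486 and DMT; black bars are list medians. The interferon-stimulated genes have medians of 0.93, 0.69, 1.31 and 0.72, and the constitutive 20S proteasome stays near 0.

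Markers of other cell types were read in the same libraries. All 3 of the 5 smooth muscle markers that could be tested, Acta2 (2.93), Cnn1 (2.28) and Tagln (2.22), were called higher in EV (5.84% of all genes were), and all 3 also in MT486 (1.14%) and DMT (4.58%), with Acta2 and Cnn1 called in WT (0.0217%). Their summed level in EV was 55.3 and 42.8 CPM with Ad-GFP and 293 and 263 CPM with Ad-Cre, in WT 59.4 and 39.7 CPM and then 146 and 146 CPM, in MT194 65.0 and 71.6 CPM and then 379 and 368 CPM, in MT486 45.9 and 39.5 CPM and then 288 and 394 CPM, and in DMT 45.9 and 34.2 CPM and then 330 and 367 CPM. Tagln was the most abundant in EV, and the defining marker Myh11 never exceeded 0.488 CPM in a population. These genes are also made by fibroblasts. Immune, epithelial and endothelial markers had 3, 1 and 1 genes with enough reads and 0 calls in EV, WT, MT486 or DMT, and with the block 2 immune markers were called higher in EV (Cd68 and Csf1r) and 1 in DMT (Csf1r). Of 9 fibroblast markers tested, 0 were called in these constructs, and with the block 2 were called higher and 4 lower in EV (Col1a1, Col1a2, Col3a1 and Pdgfra), 1 higher and 3 lower in DMT and 1 lower in MT486. Of all genes, the block called 13.0% lower in EV, 1651 of 13805 in DMT and 6.57% in MT486, and it called 12.4% higher in EV and 11.2% in DMT. In WT-Cre against EV-Cre, where the block called H2-D1, H2-K1 and Nlrc5 lower, it also called all 3 immune and all 3 smooth muscle markers lower, and 4 fibroblast markers higher and 1 lower (11.9% of all genes lower and 11.1% higher). The part of these markers in the changes of the 10 genes was not tested. In a bulk sample, more cells that make class I molecules and more RNA per cell cannot be told apart.

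The genes most like H2-D1 over the 20 populations, by Pearson's r of log2 CPM, were H2-Q4 (0.988), H2-K1 (0.986), Lgals3bp (0.986), Agrn (0.977), Il13ra2 (0.968), Bdnf (0.964), Crim1 (0.957), Helz2 (0.955), Vcl (0.953) and H2-T24 (0.952). These points share 2 replicate numbers and 2 viruses, and the reads of H2-Q4 and H2-K1 may be shared with H2-D1. The 20 populations include the MT194 libraries, whose H2-D1 values chose the set. The r values over the populations are therefore described only, and no support for the set is read from them. Over the 15 clones the same genes split: r was 0.951 for H2-K1, 0.902 for H2-Q4, 0.823 for Helz2, 0.753 for Lgals3bp and 0.728 for Agrn, but 0.540 for Il13ra2, 0.185 for Vcl, 0.185 for H2-T24, −0.237 for Crim1 and −0.524 for Bdnf. Of the other genes in the set, r with H2-D1 over the populations was 0.945 for B2m, 0.923 for Tap1, 0.909 for Nlrc5, 0.851 for Tap2, 0.846 for Psmb9, 0.748 for Psmb8, 0.366 for Tapbp and −0.405 for Psmb10. Over the clones Nlrc5 ranked 7 among all genes tested (0.886).

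In the stable clones, Psmb8 stayed under 1 CPM in every WT(N48) and Δ-C60 clone and in no other, Psmb9 was under 1 CPM there and also in WT clones 2 and 3 and MT486 clone 3, Tap1, Psmb10 and Nlrc5 were lower in each of these clones than in any other, H2-D1 and H2-K1 had their lowest means in WT(N48), and B2m and Tapbp overlapped between the vectors. All 10 genes were higher without overlap in MT194 than in WT(N48) clones (15.6% of all genes lay that way), and 7 were called (2.56% of all genes were called higher), a count that fell to 1 without WT(N48) clone 1 or clone 2, and none of the set was called against the WT clones (2.9% of all genes called).

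**Figure D5:**
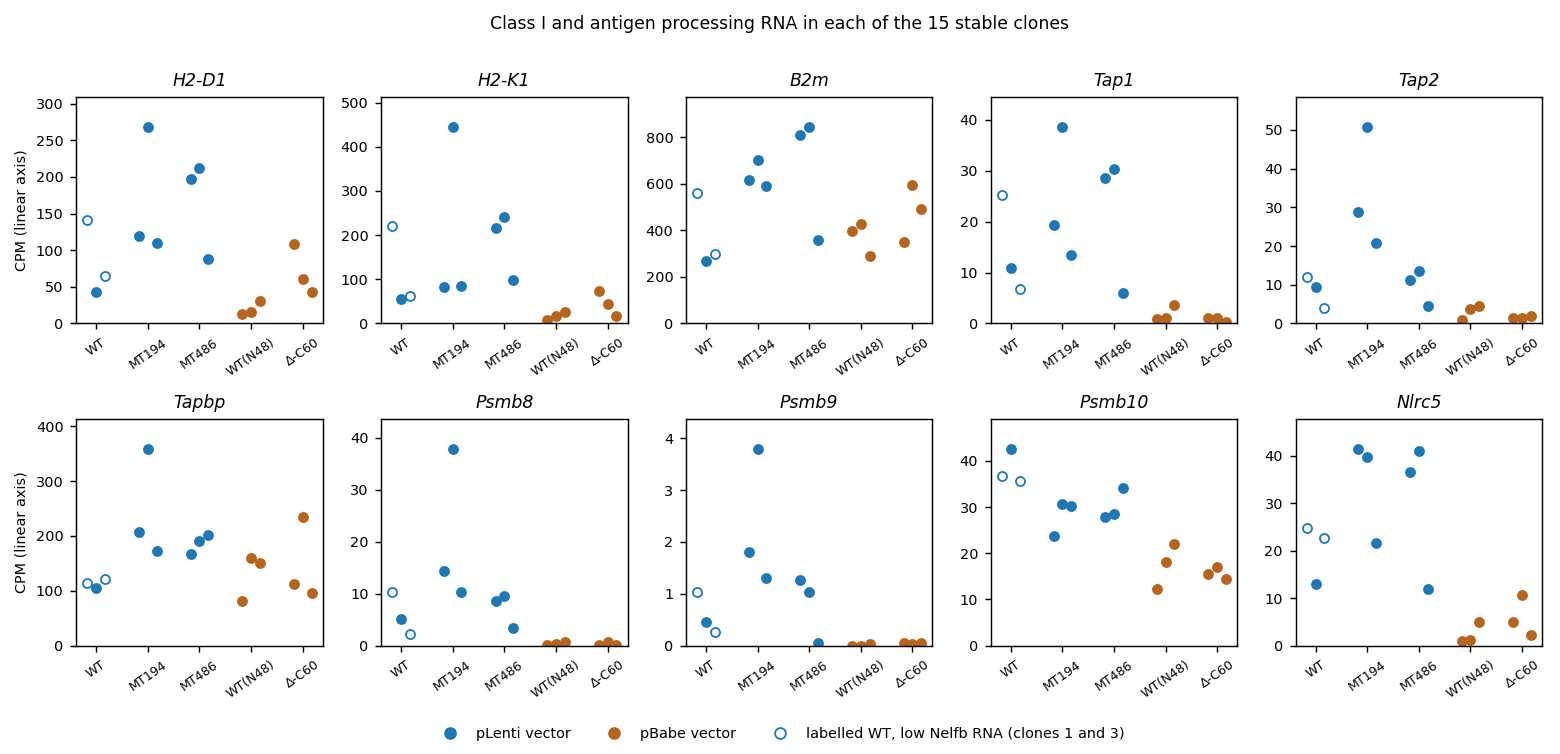
RNA level (CPM, linear axis from 0) of each gene in the 15 stable clones, 3 points per group in the order of clones 1 to 3; blue points carry pLenti, brown points pBabe, and open points are the libraries labelled WT with little Nelfb RNA. Psmb8 lies between 2.18 and 37.9 CPM in the 9 pLenti clones and between 0.101 and 0.771 CPM in the 6 pBabe clones, while B2m overlaps between the vectors.

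H2-D1 stood at 141, 42.2 and 65.1 CPM in WT clones 1 to 3, at 119, 269 and 110 CPM in MT194, at 198, 212 and 87.7 CPM in MT486, at 12.3, 15.3 and 31.1 CPM in WT(N48) and at 108, 61.0 and 42.4 CPM in Δ-C60. All WT(N48) clones were below all others, and all Δ-C60 clones were below all MT194 clones, while the other pairs of groups overlapped. MT194 against WT(N48) gave a log2 fold change of 3.08 (SE 0.59; edgeR adjusted p = 0.0167), and MT486 against WT(N48) one of 3.08 (SE 0.59; edgeR adjusted p = 0.0546). H2-K1 went with it, at 7.00, 16.8 and 26.9 CPM in WT(N48) and 81.5, 446 and 84.7 CPM in MT194 (3.59, SE 0.87, edgeR adjusted p = 0.0353).

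Psmb8 stood at 10.3, 5.19 and 2.18 CPM in WT, at 14.4, 37.9 and 10.4 CPM in MT194, at 8.65, 9.51 and 3.45 CPM in MT486, at 0.101, 0.250 and 0.771 CPM in WT(N48) and at 0.160, 0.712 and 0.148 CPM in Δ-C60. The pBabe groups did not overlap with the others. Psmb9 had no read in WT(N48) clones 1 and 2 and 1 read in clone 3, against 143 reads in the 3 MT194 clones together, a ratio of 159 after scaling to library size (95% exact interval 28.0 to 6314, counting error only). Tap1 was at 0.862, 1.05 and 3.61 CPM in WT(N48) and 1.08, 1.01 and 0.346 CPM in Δ-C60, against 25.2, 10.9 and 6.70 CPM in WT. Nlrc5 was at 0.964, 1.25 and 4.94 CPM in WT(N48), 4.97, 10.7 and 2.17 CPM in Δ-C60 and 24.8, 13.1 and 22.7 CPM in WT.

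Of the 10 genes, 7 were called higher in MT194 than in WT(N48) clones (2.56% of 13223 genes were called higher): H2-D1, H2-K1, Tap1 (log2 fold change 3.67, edgeR adjusted p = 0.0260), Tap2 (3.47, edgeR adjusted p = 0.0124), Psmb8 (5.73, edgeR adjusted p = 0.00913), Psmb9 and Nlrc5 (3.82, edgeR adjusted p = 0.0175). The count was 1 without WT(N48) clone 1 (Tap2), 1 without WT(N48) clone 2 (Psmb8), 4 without MT194 clone 1 and 8 without WT(N48) clone 3. The shares of all genes called in those fits are not given here, so these counts show only that calls rested on single clones. In Δ-C60 against WT clones, 4 were called lower (3.22% of all genes): Tap1 (−4.11, edgeR adjusted p = 0.0171), Psmb8 (−4.06, edgeR adjusted p = 0.0210), Tap2 (−2.49, edgeR adjusted p = 0.0279) and Psmb10 (−1.29, edgeR adjusted p = 0.00690). In WT(N48) against WT clones, 3 were called lower (0.93%): Psmb8 (−3.90, edgeR adjusted p = 0.0432), Nlrc5 (−3.06, edgeR adjusted p = 0.0492) and Psmb10 (−1.13, edgeR adjusted p = 0.0268). Without the libraries labelled WT clones 1 and 3, which leaves 1 WT library assumed to vary like the other groups, 0 were called in either comparison, and 3 genes in all were called in Δ-C60 and 2 in WT(N48). The log2 fold changes against that 1 WT library were −3.74 for Tap1, −3.90 for Psmb8, −2.67 for Tap2 and −1.47 for Psmb10 in Δ-C60, and −3.73 for Psmb8, −2.45 for Nlrc5 and −1.30 for Psmb10 in WT(N48), all in the same direction as with 3 WT clones. The Δ-C60 count was also 1 without WT clone 1 and 2 without Δ-C60 clone 3. The WT(N48) count was 5 without WT(N48) clone 3 and 0 without any other single clone of those groups.

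None of the set passed in the remaining clone comparisons. MT194 and MT486 against WT clones had 0 of the 10 genes called (2.9% and 0.0% of all genes), as did Δ-C60 against WT(N48) (0.0%), MT486 against WT(N48) (0.287%) and MT486 against MT194 (0.348%). At an unadjusted p under 0.05 these comparisons gave 2796, 1176, 1540, 1991 and 2473 genes. Without overlap, 5 of the 10 were higher in MT194 than in WT clones (16.6% of all genes) and Psmb10 was lower (16.9%). In MT486 against WT, Tapbp was higher (12.6%) and Psmb10 lower (11.6%). Psmb10 was higher without overlap in both than in WT(N48) (15.6% and 13.8% of all genes), so its direction turned with the reference clones. Without WT clones 1 and 3, 0 of the 10 were called in MT194 and in MT486 against WT, with 1 gene called in all in each. DESeq2 called 2 of the 10 in MT194 against WT (Tap2 and Tapbp), 7 in MT486 against WT(N48), 1 in Δ-C60 against WT(N48) (H2-D1), 1 in MT486 against MT194 (Tap2) and 0 in MT486 against WT, where it called 1170, 584, 220, 800 and 158 of all 13223 genes in the same order. In MT486 against WT(N48), edgeR called 4 without MT486 clone 3 and 3 without WT(N48) clone 3. The shares of all genes called in those fits are not given here, so nothing is read from these counts. Tap2, at 28.8, 50.9 and 20.8 CPM in MT194 and 11.2, 13.5 and 4.60 CPM in MT486, did not overlap between these groups (−1.77, SE 0.57, edgeR adjusted p = 0.134).

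All 9 pLenti clones lay above all 6 pBabe clones for 4 of the 10 genes, Tap1, Psmb8, Psmb10 and Nlrc5, an arrangement that was looked at after the values were seen; 1.07% of all genes tested lay that way. Psmb10 was at 23.7 to 42.6 CPM with pLenti and 12.2 to 21.97 CPM with pBabe. Smooth muscle markers differed as well, summing to 2172, 1065 and 57.1 CPM in WT(N48) and 732, 96.4 and 5181 CPM in Δ-C60, against 82.6 to 92.7 CPM in WT and 16.2 to 272 CPM in MT194 and MT486. Of the 5, 4 were tested, and Cnn1 was called higher in Δ-C60 than in WT (4.65, edgeR adjusted p = 0.0273) and lower in MT194 than in WT(N48) (−4.09, edgeR adjusted p = 0.0488); their part in the levels of the 10 genes was not tested. Interferon-stimulated genes had medians of −1.90 in WT(N48) and −1.60 in Δ-C60 against WT clones, with 0 of 27 called in either. Without WT clones 1 and 3 these medians were 0.00 and 0.24 over 29 genes tested, and the Cnn1 change in Δ-C60 was 4.58 and no longer called (edgeR adjusted p = 0.384). The median was 2.88 in MT194 against WT(N48), also with 0 called. Other class I genes had 3 of 9 called higher in MT194 against WT(N48), H2-Q4 (5.18), Cd1d1 (3.87) and H2-T23 (3.27), and the constitutive 20S proteasome had 1 of 14, Psma2, called lower (−0.69). In the same comparison Jak1 (0.76) and Tyk2 (0.94) among 7 interferon pathway genes, Irf2 (0.79) and Rfxank (1.31) among 19 regulators and H2-DMa (1.99) and H2-DMb1 (3.47) among 3 class II genes were called higher, and the regulator Nfya lower (−1.31). Among all genes, 2.56% were called higher and 3.26% lower there. Of these 11 genes outside the set, H2-DMa alone was called without WT(N48) clone 1, and Cd1d1, H2-DMa and H2-DMb1 without WT(N48) clone 2, in a check added after the values were seen.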

How the data were processed

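The deposited counts are whole reads per gene, without normalization. The authors made them by aligning single reads of 50 bp from poly(A) libraries to mm10 with bowtie2, skipping alignments with a mapping quality under 30, and counting reads on genes with HTSeq. A stranded kit was used by the labels; the strand setting of the counting is not given in the sources used here. The strain of the MEFs is not given either, while mm10 carries the H2 alleles of C57BL/6, so how far reads of other alleles were lost was not tested. Reads on no gene (11.7% to 21.3% in populations, 9.14% to 12.0% in clones) and ambiguous reads were left out of library sizes.

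Counts were normalized by TMM and tested with edgeR 4.0.16 in R 4.3.3: genes were kept by filterByExpr, with 13805 tested in the 20 populations and 13223 in the 15 clones, 1 mean was fitted per group, the spread was shared over all groups of the set, and p-values of the quasi-likelihood test were adjusted by Benjamini-Hochberg over all genes tested. SE is the absolute log2 fold change divided by the square root of F. The study used DESeq2, which was an alternative here (version 1.42.0), as were DESeq2's size factors, no filter, a log2 threshold of 1, the compared groups alone, the replicate block and leaving out each library. RPKM uses the joined length of all GENCODE exons of a gene, which can exceed that of the transcript made. Levels and ratios between genes are therefore approximate, and changes of a ratio between groups are less affected. The paper states 2 independent experiments for the populations and independent clones for the clone RNA-seq it shows. Beyond that, whether replicates came from separate cultures is not stated library by library. The p-values measure the spread between these libraries. Replicate numbers pair the populations: deviations of equal numbers correlated over 0.1 in 45 of 45 pairs of groups (0.420 to 0.730). Steps were tested on simulated data.

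The 10 genes and all lists were chosen with earlier results of these data known. Named genes were the 10 genes, Nelfb, the most abundant gene of each list with up to 4 of its largest calls at a mean of at least 1 CPM, and the 10 genes most correlated with H2-D1 (prior count 2). Some markers and interferon ligands are also named for their low levels. H2-Q3 and H2-T27 had no line in the files under these symbols. The result of 1 listed gene is not reported here.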

Additional observations from a re-analysis of the deposited data

Results flagged for a closer look

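Tapbp and Psmb10 had log2 ratios of Ad-Cre over Ad-GFP of opposite sign in the constructs compared here, with the same sign in both replicates of each. Neither gene was called for its Cre effect in a construct tested. The Tapbp ratios in WT (−0.013 and −0.0050) and in MT194 replicate 1 (0.0087) were close to 0. For Tapbp, the mean log2 ratio of Ad-Cre over Ad-GFP in MT194 exceeded that in EV by 0.48 and that in WT by 0.34. For Psmb10, it exceeded that in EV by 0.53 and that in DMT by 0.27 in MT194, and by 0.42 and 0.16 in MT486. Differences that involve MT194, and that between MT486 and DMT, were not tested. The Psmb10 difference between MT486 and EV was tested and did not pass (log2 difference 0.44, SE 0.42, edgeR adjusted p = 1).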

How the results depend on the processing

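Each count of called genes among the 10 was recomputed under every alternative. With the replicate block, which pairs the populations, it became 8 in EV (5 without it), 2 in WT (0), 7 in MT486 (1), 7 in DMT (4), 4 in WT-Cre and 1 in MT486-Cre against EV-Cre (0 each) and 1 for the Cre effect in WT against that in EV (0), and it changed no other count in the populations. The numbers do not pair the clones (3 of 30 pairs of groups over 0.1), where the block gave 1 in WT(N48) against WT (3 without it). Fitting the compared groups alone gave 2 in EV, 0 in MT486, 2 in DMT, 1 in WT(N48) and 1 in Δ-C60 against WT, and 3 in MT194 against WT(N48). DESeq2 gave 4 in MT486, 1 in WT-Cre against EV-Cre, 2 in MT194 and 7 in WT(N48) against WT, 7 in MT486 and 1 in Δ-C60 against WT(N48), and 1 in MT486 against MT194. No filter gave 1 in WT(N48) against WT. Without WT clones 1 and 3, both WT(N48) and Δ-C60 against WT gave 0, with 1 WT library left; the 7 changes called with all clones kept their direction, with log2 fold changes from −3.90 to −1.30.

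Leaving out 1 library gave 1 to 3 in EV, 0 to 1 in MT486, 0 to 3 in DMT, 0 to 5 in WT(N48) and 1 to 5 in Δ-C60 against WT, 1 to 8 in MT194 and 0 to 4 in MT486 against WT(N48), and a log2 fold change of H2-D1 in MT194 from 1.49 to 3.04. Shares of all genes called are not given for the fits that left out 1 library. Their counts show only how far calls rested on single libraries. DESeq2's size factors and a log2 threshold of 1 left every count within 1.5 times. No called change reversed. Of 2415 values of single genes under an alternative, 53 gained and 96 lost a call. Why these differ was not tested. Depth limits Psmb9 most, with 1 read in the 3 WT(N48) clones.

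The number of genes called among all tested moved as well. For the Cre effect it was 1626 in EV, 3 in WT, 334 in MT486 and 1369 in DMT, against 3502, 426, 1673 and 3191 with the replicate block, and 239, 1, 5 and 489 with the compared groups alone; DESeq2 gave 59 in WT and 684 in MT486, and a log2 threshold of 1 gave 900 in EV, 201 in MT486 and 733 in DMT. In MT194 against WT(N48) it was 770, against 395 with the block, 1744 with DESeq2, 134 with the groups alone, 472 with no filter and 429 with a log2 threshold of 1. In Δ-C60 against WT it was 1102, against 718, 2013, 79 and 711 (block, DESeq2, groups alone, log2 threshold of 1), and in WT(N48) against WT 278, against 102, 1169 and 567 (block, DESeq2, groups alone).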
